A study of Homo sapiens with 3 samples.

Results

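Kinesins and cytoplasmic dynein are the motors that walk on microtubules or take them apart, using energy from ATP. Most kinesins move toward the plus ends of microtubules, and cytoplasmic dynein moves toward the minus ends. Part of the kinesin family builds the mitotic spindle, moves chromosomes and cuts the dividing cell in its middle, and is made mainly in cells that pass through mitosis. The other kinesins carry vesicles, organelles and ciliary cargo throughout the cell cycle. The motor genes were taken by symbol, namely every KIF and KIFC gene, the kinesin light chains KLC, KIFAP3 and the chains of cytoplasmic dynein (DYNC and DYNL). This gave 60 of the 25270 gene symbols listed. They were divided by known role into 14 mitotic kinesins, 15 transport kinesins, 5 light chains and associated proteins of transport kinesins, 13 kinesins with other or mixed roles, 5 chains of cytoplasmic dynein 1, 2 chains of the ciliary dynein 2 and 6 dynein light chains.

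The libraries came from HepG2 cells, a human hepatocellular carcinoma line, left untreated (parental HepG2), from HepG2/metR cells, which are HepG2 cells that survived metformin for more than 5 months and make much lactate, and from such HepG2/metR cells after 24 h with 40 mM oxamate, which blocks the lactate-forming enzyme lactate dehydrogenase. Each condition was sequenced as 1 library of total RNA, so no difference below has a replicate check, no error and no p-value can be given, and every comparison is one of libraries. Levels are given as FPKM, fragments scaled to transcript length and library size, which allows levels of different genes to be set side by side. Changes are differences of log2(FPKM + 1), which understate the change of low genes. A gene was kept for counts when its mean FPKM over the 3 libraries was at least 1, as was the case for 45 of the 60 motor genes and for 12210 genes in all. The thresholds were those of the study, 2-fold (1 on the log2 scale) for HepG2/metR against parental cells and 1.5-fold (0.585) for oxamate.

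The listed FPKM summed to between 473773 and 562382 per library, and the number of reads is unknown. Relative depth was judged from genes above 0 and below 0.15 FPKM in both libraries, by their most frequent ratio of parental to other FPKM. It was 1.21 for HepG2/metR and 1.24 for oxamate when parental cells are set to 1. The bin of that ratio held 160 of 890 genes for HepG2/metR and 120 of 904 for oxamate, so it is a rough estimate. The hepatocyte markers checked against the label, among them ALB, AFP and APOA2, passed 2-fold downward in HepG2/metR for 10 of 10 genes, and summed to 32040 FPKM in parental cells, 13.97 in HepG2/metR cells and 11.2 after oxamate. Of 8 fibroblast markers, 4 were kept and 3 of them, VIM, THY1 and LUM, were past 2-fold upward in HepG2/metR. VIM was at 1.23, 1576 and 1140 FPKM, THY1 at 0.0374, 53.3 and 48.5 FPKM and LUM at 0.172, 3.25 and 6.69 FPKM, and the list summed to 6.30, 1637 and 1203 FPKM. The fibroblast genes not kept, COL1A1, COL1A2, DCN and FAP, were at or below 1.22 FPKM in every library. The HepG2/metR libraries thus do not show the liver markers of the line they are labelled with, and the part of these marker differences in those of the motors was not tested.

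Promoters are shown first, for the mitotic kinesins on which the results turn and for a pair of transport kinesins beside them, because mitotic genes are known to share promoter elements. The CCAAT box binds the factor NF-Y. The cell cycle homology region (CHR) is bound by complexes that hold back late cell cycle genes in resting cells and activate them before division. The sequences are those of RefSeq on build GRCh38.p14, from 100 bases before to 20 bases after the transcript start, 5′ to 3′ on the strand of the gene, and so cover the start of the first exon and the bases upstream of it. Capitals mark a CCAAT box (CCAAT, or its complement ATTGG) or a CHR, searched as TTTGAA and as the palindrome TTCGAA, with TTCAAA as the complement of the former. Shown first are the promoters without a CHR, those of the microtubule-depolymerizing motor KIF2C at chr1:44739737-44739856 (+) and of KIF20A, which brings Aurora B to the central spindle, at chr5:138179012-138179131 (+). Next come KIF18B, which acts on astral microtubules, at chr17:44947754-44947873 (-), KIF18A, which aligns chromosomes on the spindle, at chr11:28108137-28108256 (-), and KIF23, the motor of the centralspindlin complex, at chr15:69414249-69414368 (+). They are followed by KIF4A, a motor of chromosomes and of the spindle midzone, at chrX:70290004-70290123 (+), KIF11, which pushes the spindle poles apart, at chr10:92593030-92593149 (+), and KIF14, a motor of cytokinesis, at chr1:200620732-200620851 (-). KIFC1, the minus-end motor that focuses spindle poles, lies at chr6:33391723-33391842 (+), and the chromosome-bound motor KIF22 at chr16:29790651-29790770 (+). The transport kinesins are KIF5B, a heavy chain of conventional kinesin, at chr10:32056406-32056525 (-), and KIF3A, a subunit of heterotrimeric kinesin, at chr5:132737527-132737646 (-).
KIF2C: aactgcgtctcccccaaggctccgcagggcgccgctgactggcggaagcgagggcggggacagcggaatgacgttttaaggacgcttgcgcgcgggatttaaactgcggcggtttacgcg
KIF20A: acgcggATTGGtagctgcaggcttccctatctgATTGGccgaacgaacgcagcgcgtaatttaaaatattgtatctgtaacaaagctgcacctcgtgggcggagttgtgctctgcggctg
KIF18B: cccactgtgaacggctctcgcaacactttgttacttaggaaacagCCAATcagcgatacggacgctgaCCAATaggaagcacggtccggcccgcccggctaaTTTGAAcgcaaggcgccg
KIF18A: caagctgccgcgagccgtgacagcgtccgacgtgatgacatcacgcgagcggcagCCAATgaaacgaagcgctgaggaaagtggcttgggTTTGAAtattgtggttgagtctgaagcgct
KIF23: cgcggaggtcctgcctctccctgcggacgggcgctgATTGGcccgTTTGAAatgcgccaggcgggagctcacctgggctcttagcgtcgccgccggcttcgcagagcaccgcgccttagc
KIF4A: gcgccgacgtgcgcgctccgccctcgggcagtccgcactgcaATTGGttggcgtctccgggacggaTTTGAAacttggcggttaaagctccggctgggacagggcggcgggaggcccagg
KIF11: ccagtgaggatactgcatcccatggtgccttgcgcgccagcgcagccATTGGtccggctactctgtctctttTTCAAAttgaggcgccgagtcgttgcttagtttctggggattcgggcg
KIF14: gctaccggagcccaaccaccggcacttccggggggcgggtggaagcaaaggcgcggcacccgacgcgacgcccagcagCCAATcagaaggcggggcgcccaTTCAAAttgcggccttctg
KIFC1: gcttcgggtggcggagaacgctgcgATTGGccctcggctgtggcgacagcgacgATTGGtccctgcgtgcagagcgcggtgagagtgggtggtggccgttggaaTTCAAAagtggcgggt
KIF22: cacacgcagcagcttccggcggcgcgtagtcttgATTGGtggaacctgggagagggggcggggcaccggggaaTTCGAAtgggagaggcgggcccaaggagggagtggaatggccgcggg
KIF5B: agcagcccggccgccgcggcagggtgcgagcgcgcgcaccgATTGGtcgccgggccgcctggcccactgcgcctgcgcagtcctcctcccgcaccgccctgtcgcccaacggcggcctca
KIF3A: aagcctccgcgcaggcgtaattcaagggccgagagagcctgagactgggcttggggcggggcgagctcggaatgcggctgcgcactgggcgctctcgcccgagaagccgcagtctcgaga

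Of these 10 mitotic promoters, 8 held a CCAAT box followed by a CHR, with the first bases of the closest such pair 9 to 50 bases apart. Over the whole promoter in the table, from 250 bases before to 50 after the start, a CHR was found for 11 of the 14 mitotic kinesins (78.6%), for 1 of the 11 transport kinesins with a promoter in the table (9.09%) and for 15.3% of the 9101 genes kept that have a promoter in the table. A CCAAT box and a CHR together were found for 10 of the 14 mitotic kinesins, for KIF5B alone among the transport kinesins, where the CHR lies upstream of the CCAAT box, and for 6.505% of the genes kept. Other genes of dividing cells, described below, also often held a CHR. It was found for 9 of the 11 markers of dividing cells with a promoter in the table (81.8%). For the partners of the mitotic motors it was 8 of 12 (66.7%). The mitotic kinesins without a CHR were KIF2B, KIF2C and KIF20A. Among the mitotic promoters not shown above, the closest pair lay 122 bases apart for KIF20B and 24 for KIF4B. KIF15, also not shown, held a CHR but no CCAAT box. The related letters TTTAAA, a search added after the sequences had been seen, were found for 4 of the 14 mitotic kinesins, KIF2C, KIF20A, KIF14 and KIF23, and for 10.7% of the genes kept. An E2F site, searched as the letters TTCCCGC, the letters TTCGCGC, the letters TTGCCGC and the letters TTGGCGC, was found for 4 of the 14 mitotic kinesins (28.6%), close to the 25.6% of the genes kept. All searches covered both strands, and a gene was counted when any of its starts held the letters. The letters TTGG are shared by ATTGG and TTGGCGC, so that these motifs can overlap. Over all 27305 genes of the promoter table, a CHR was found for 19.5%, a CCAAT box for 39.7% and an E2F site for 15.3%. These matches are letters in a window and were not tested as binding sites.

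The first comparison asked how the motors differ between the lactate-producing HepG2/metR cells and parental cells. Mitotic kinesins were higher in HepG2/metR cells, and transport kinesins were spread on both sides of no change. Of the 12 mitotic kinesins kept, 11 were higher, against 50.6% of all genes kept, and 1 was lower, against 49.3%. In this list 6 were at least 2-fold higher, against 16.6% of all genes, and none was 2-fold lower, against 17.6%. Their median log2 change was 1.01, beside 0.02 over all genes kept. Of the 13 transport kinesins kept, 2 were at least 2-fold higher and 2 at least 2-fold lower, shares close to those of all genes, with a median of 0.10. In bulk RNA a different share of dividing cells and a different amount of RNA per dividing cell cannot be told apart. The second comparison asked how the motors differ in HepG2/metR cells once oxamate blocks the formation of lactate. With oxamate 12 of the 12 mitotic kinesins were lower, all but KIF14 also with equal FPKM totals, against 45.6% of all genes kept, and 7 of them were at least 1.5-fold lower, against 3.82%, with a median of -0.61. Of the 13 transport kinesins 12 were higher, against 52.9% of all genes kept, with a median of 0.24, and 1 passed 1.5-fold, against 4.3% of all genes. The median of all genes kept was 0.02 in this comparison as well.

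The comparisons share the single HepG2/metR library, and their values are set side by side for that reason, not read as independent of each other. Giving every library an equal FPKM total raised the median of all genes with oxamate to 0.17 and turned the 525 genes higher and 466 lower at 1.5-fold into 1191 and 192. Under that scaling 1 of the 12 mitotic kinesins, KIFC1, passed 1.5-fold, with a change of -0.59, and 3 of the 13 transport kinesins did, KIF3A, KIF5A and KIFC2, with changes of 0.83, 0.71 and 0.64. The median of the mitotic kinesins relative to that of all genes was -0.63 as deposited and -0.61 under that scaling, and that of the transport kinesins 0.21 and 0.23.

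**Figure D1:**
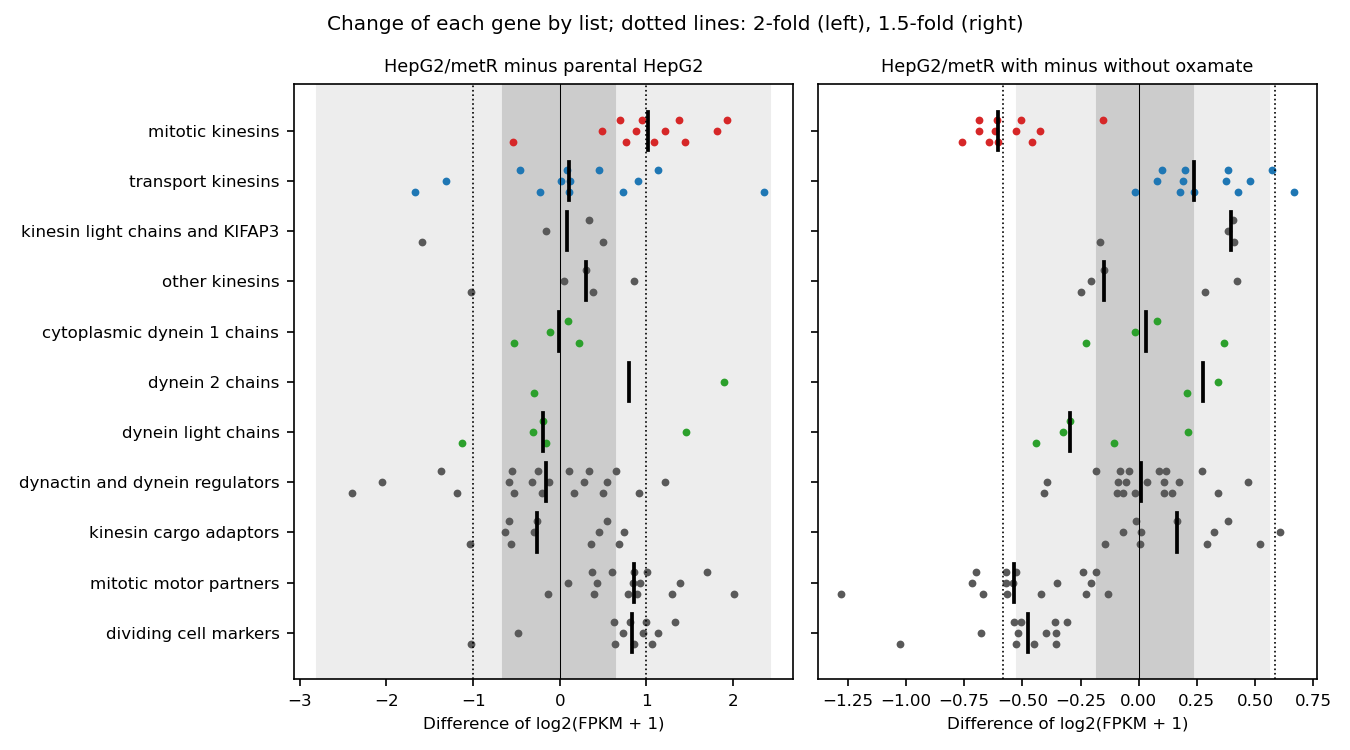
Difference of log2(FPKM + 1) for each gene kept, by list, in HepG2/metR against parental cells (left) and in oxamate-treated against untreated HepG2/metR cells (right). Points are genes, black bars list medians, dark and light bands the central 50% and 90% of all 12210 genes kept. On the right, with the deposited scaling, the 12 mitotic kinesins lie below 0, with a median of -0.61 (KIF14 reaches 0.01 with equal FPKM totals), and 12 of the 13 transport kinesins above it, with a median of 0.24.

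A ratio of levels within a library does not depend on how libraries are scaled. The mitotic kinesins summed to 228 FPKM in parental cells, 427 in HepG2/metR and 279 after oxamate. The transport kinesins summed to 189, 215 and 250.1 FPKM in the same order. The ratio of mitotic to transport kinesins was therefore 1.20 in parental cells, 1.99 in HepG2/metR cells and 1.12 with oxamate. KIF22 alone held 57.2 of the 228 FPKM in parental cells, and without it, a choice made after its level had been seen, the ratio was 0.901, 1.804 and 0.9998. The chains of cytoplasmic dynein 1 summed to 151, 137 and 147 FPKM, a smaller spread than either kinesin list.

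**Figure D2:**
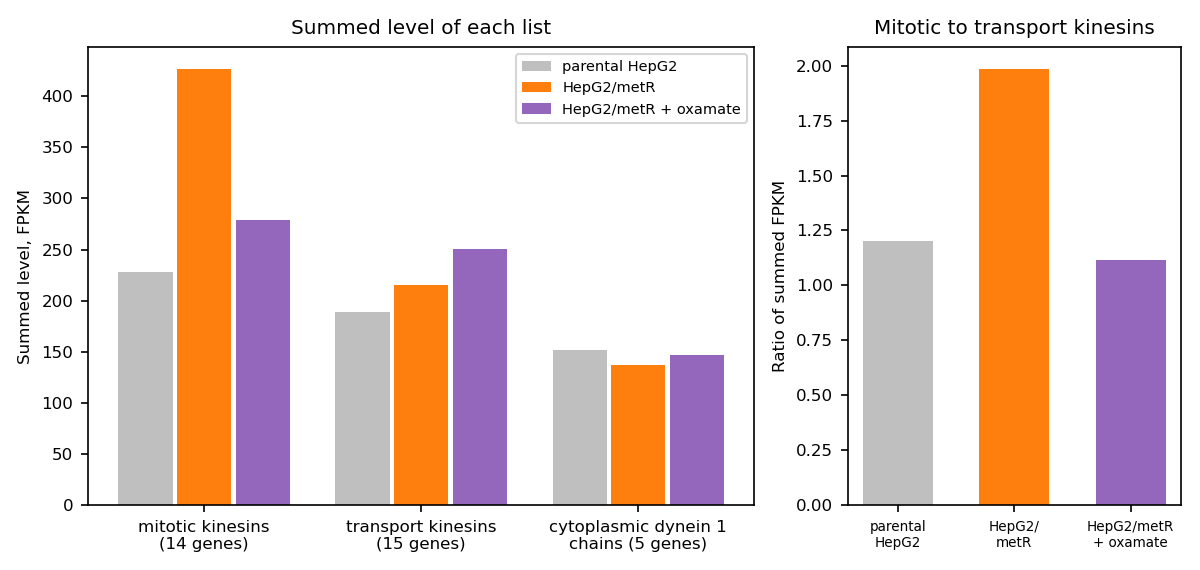
Left, summed level in FPKM of the 14 mitotic kinesins, the 15 transport kinesins and the 5 cytoplasmic dynein 1 chains in each of the 3 libraries. Right, the ratio of mitotic to transport kinesins within each library, 1.20, 1.99 and 1.12.

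Among the motors that act on chromosomes and microtubule ends, KIF2C was listed at 26.6 FPKM in the parental library, 63.2 in that of HepG2/metR and 38.9 in that with oxamate, with log2 changes of 1.22 and -0.69. It was the highest mitotic kinesin in both HepG2/metR libraries. KIF18A was listed at 5.13, 22.2 and 15.4 FPKM, with changes of 1.92 and -0.51, the former the largest of the mitotic kinesins and the latter short of 1.5-fold. Its paralog KIF18B was the higher gene in every library, at 14.1, 38.1 and 24.6 FPKM, with changes of 1.37 and -0.61. KIF4A was at 16.1, 31.8 and 19.4 FPKM, with changes of 0.94, just under 2-fold (1.08 under upper-quartile scaling), and -0.68. Its near-identical intronless copy KIF4B, with which reads can be shared, was at or below 0.0479 FPKM.

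KIF22 went against the other mitotic kinesins in the first comparison. It was the highest of them in parental cells at 57.2 FPKM and was lower in HepG2/metR at 39.1 and with oxamate at 28.9, with log2 changes of -0.54 and -0.42. KIF22 and KIF15 were the mitotic kinesins below 1.5-fold in both comparisons. KIF15, which can take over from KIF11 in holding the spindle bipolar, was at 7.60, 11.0 and 7.74 FPKM, with changes of 0.48 and -0.46. KIF11 itself was at 17.5, 33.0 and 22.6 FPKM, with changes of 0.88 and -0.53. The spindle pole motor KIFC1 was at 29.6, 48.4 and 28.2 FPKM. Its change of 0.69 in HepG2/metR was under 2-fold, and its change of -0.76 was the largest fall with oxamate among the motors. After oxamate KIF22 was below its parental level, by -0.96 on the log2 scale. KIFC1 and KIF15 were close to theirs, at -0.07 and 0.02, and changed sides with the scaling, KIFC1 to 0.06 under upper-quartile scaling and KIF15 to -0.01 under median-of-ratios scaling. The other mitotic kinesins kept were above their parental level under every scaling tried.

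Among the motors of the central spindle and of cytokinesis, KIF23 was at 15.3, 56.2 and 35.7 FPKM, with log2 changes of 1.81 and -0.64. KIF20A was at 23.3, 50.4 and 32.6 FPKM, with changes of 1.08 and -0.62, each within 0.10 of its threshold. It overlaps CDC23, as KIF23 overlaps KIF23-AS1, and their reads may not have been told apart, as for other motors that overlap genes. KIF20B, a paralog that also acts late in division, was at 10.6, 18.7 and 11.98 FPKM, with changes of 0.76 and -0.60, and had a rather constant share of the pair, from 26.9% to 31.3%. KIF14 stood apart from this group. It was the lowest of the 12 in parental cells at 4.68 FPKM, reached 14.5 in HepG2/metR and stayed at 12.9 with oxamate. Its change of 1.44 passed 2-fold, and its change of -0.15 with oxamate was the smallest of the 12 and turned to 0.01 with equal FPKM totals. KIF2B was listed at 0 in all libraries. Of the 12 mitotic kinesins kept, 11 had their highest level in HepG2/metR cells, all but KIF22, and 10 with equal FPKM totals. The share of all genes kept with that order was not counted, and a peak there restates the comparisons that share this library.

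**Figure D3:**
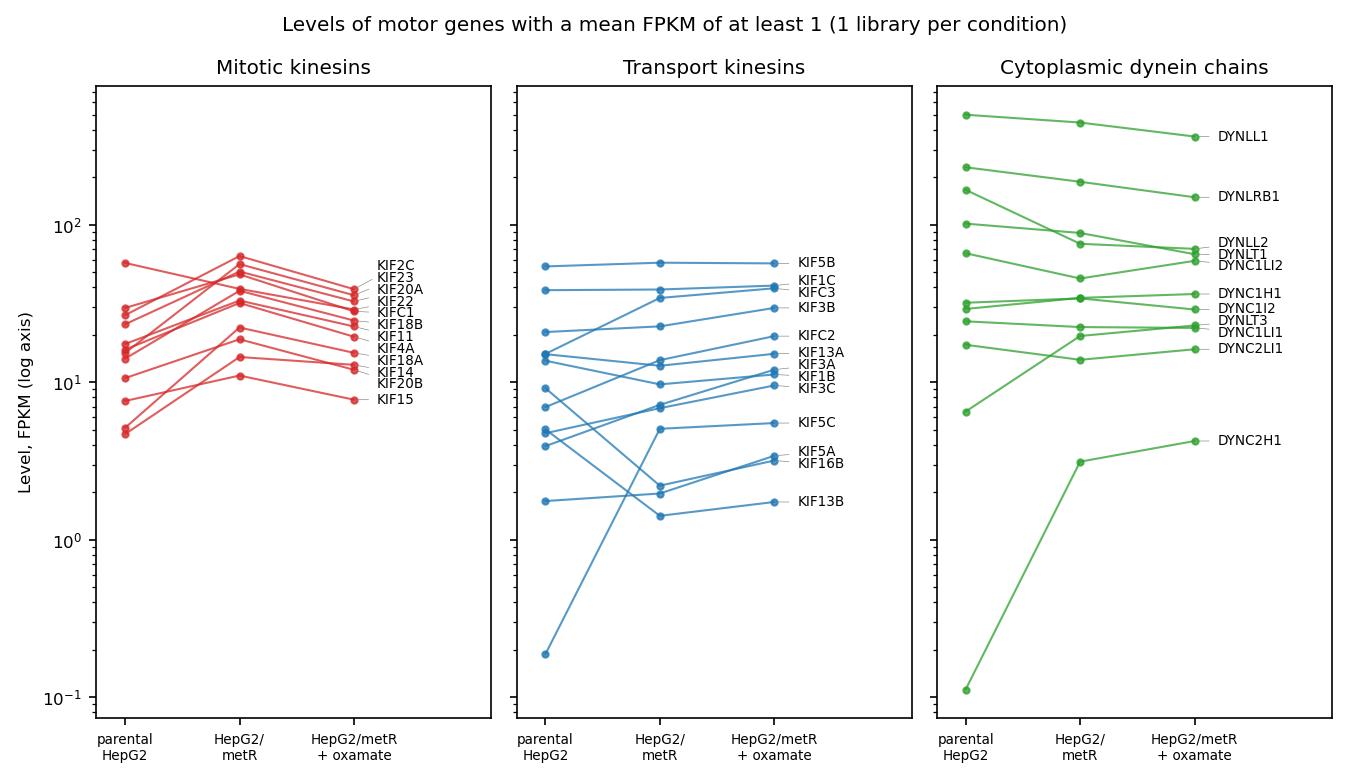
Level in FPKM, on a log axis, of each mitotic kinesin, transport kinesin and dynein chain kept, in each of the 3 libraries, with lines joining the values of a gene. Of the 12 mitotic kinesins, 11 peak in HepG2/metR, KIF22 excepted (10 with equal FPKM totals). The share of all genes that peak there was not counted. KIF5C rises from 0.187 to 5.06 FPKM and DYNC2H1 from 0.112 to 3.13 FPKM between parental and HepG2/metR cells.

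The mitotic kinesins moved beside other genes of dividing cells. Of 12 markers of dividing cells, 3 passed 2-fold upward in HepG2/metR, CDC20, CENPF and MKI67, against 16.6% of all genes kept, and 1 was at least 2-fold lower, PLK1, against 17.6%, with a median of 0.83. PLK1, a mitotic kinase, was at 102, 49.9 and 30.8 FPKM, and CCNA2, a cyclin, was also lower in HepG2/metR, at 51.6, 36.7 and 25.5 FPKM. With oxamate 12 of 12 were lower, against 45.6% of all genes kept, with a median of -0.48. MKI67, the common marker of proliferating cells, was at 18.2, 39.3 and 28.5 FPKM. Summed mitotic kinesins over summed markers gave 0.362 in parental cells, 0.432 in HepG2/metR cells and 0.408 with oxamate, a much narrower range than the ratio to the transport kinesins. The part of the share of dividing cells in the kinesin differences was not tested. Of 16 genes listed as partners of the mitotic motors, 5 passed 2-fold upward in HepG2/metR, against 16.6% of all genes kept, with a median of 0.85. They include CENPE, itself a mitotic kinesin that the choice by symbol left out of the motors. It was at 6.28, 10.1 and 8.48 FPKM, with changes of 0.61 and -0.23. With oxamate 16 of 16 were lower, against 45.6%, and 4 at least 1.5-fold, against 3.82%, with a median of -0.53. RACGAP1, which forms centralspindlin with KIF23, was at 24.7, 66.1 and 44.4 FPKM. AURKB, the kinase that KIF20A carries to the midzone, had a larger change with oxamate, from 77.8 to 31.5 FPKM, or -1.28 on the log2 scale. The ratio of mitotic kinesins to these partners was 0.397, 0.427 and 0.410.

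Of the transport kinesins, the conventional heavy chain KIF5B was the highest, at 54.3 FPKM in parental HepG2, 57.4 in untreated HepG2/metR and 56.8 in treated HepG2/metR, with log2 changes of 0.08 and -0.01. Its change with oxamate was 0.16 with equal FPKM totals. KIF1C, which carries vesicles between the Golgi and the cell periphery, was at 38.4, 38.8 and 41.1 FPKM, with changes of 0.01, which turned to -0.01 under median-of-ratios scaling, and 0.08. As deposited, KIF5B and KIF1C were thus nearly level across the libraries, and the larger differences lay in lower genes and in KIFC3. With equal FPKM totals KIF5B was 0.31 and KIF1C 0.34 above parental cells after oxamate. KIFC3, a minus-end motor found at adherens junctions and the Golgi, was at 15.1, 34.3 and 39.5 FPKM, with changes of 1.13 and 0.20. The endosome motor KIF16B was at 9.17, 2.201 and 3.18 FPKM, with a change of -1.67 in HepG2/metR. KIF13B, another vesicle motor, was at 5.02, 1.42 and 1.74 FPKM, with a change of -1.32.

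KIF3A was the transport kinesin past 1.5-fold with oxamate. Its level was 3.92 FPKM in parental cells, 7.18 in untreated and 12.01 in oxamate-treated HepG2/metR cells, with log2 changes of 0.73 and 0.67. It forms a heterotrimer with KIF3B or KIF3C and the associated protein KIFAP3, which carries cargo into cilia and along microtubules. All parts of this motor were higher with oxamate, as were 52.9% of all genes kept. KIF3B was at 20.8, 22.6 and 29.6 FPKM, KIF3C at 4.74, 6.84 and 9.53 and KIFAP3 at 5.31, 7.89 and 10.6. Their changes with oxamate of 0.37, 0.43 and 0.38 were under 1.5-fold. The share of KIF3A in the FPKM of the 3 motor subunits was 13.3% in parental cells, 19.6% in HepG2/metR and 23.5% after oxamate. KIF5A was just short of the threshold with oxamate, at 1.96 FPKM without and 3.41 with it, a change of 0.57. Of the 13 transport kinesins kept, 9 had their highest level in oxamate-treated cells, and 8 to 10 under the other scalings. The share of all genes kept with their highest level there was not counted.

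Paralogs of the transport motors did not keep constant shares. The KIF5 heavy chains summed to 56.3, 64.4 and 65.7 FPKM. KIF5C, known mainly from neurons, made up 0.332% of this sum in parental cells, 7.85% in HepG2/metR cells and 8.37% with oxamate, at 0.187, 5.06 and 5.502 FPKM. Its log2 change of 2.35 in HepG2/metR was the largest of all motor genes kept with the pseudocount of 1. By the plain FPKM ratio DYNC2H1 was slightly above KIF5C, at 28.0 against 27.1, each from a low parental level. The neuronal KIF1A, not kept, was at or below 0.437 FPKM. Among the light chains, which tie conventional kinesin to its cargo, KLC4 was at 17.2, 5.05 and 7.03 FPKM, with a change of -1.59, and its share of the light chains was 31.7%, 11.95% and 15.2%. KLC2 had a share of 19.8%, 32.6% and 40.0%, at 10.7, 13.8 and 18.6 FPKM. KLC1, at 26.2, 23.4 and 20.7 FPKM, had the highest share in every library. KIFC2, a minus-end transport motor of the same family as the mitotic KIFC1, was at 6.94, 13.8 and 19.6 FPKM, and the share of KIFC1 in the family was 57.3%, 50.2% and 32.3%.

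**Figure D4:**
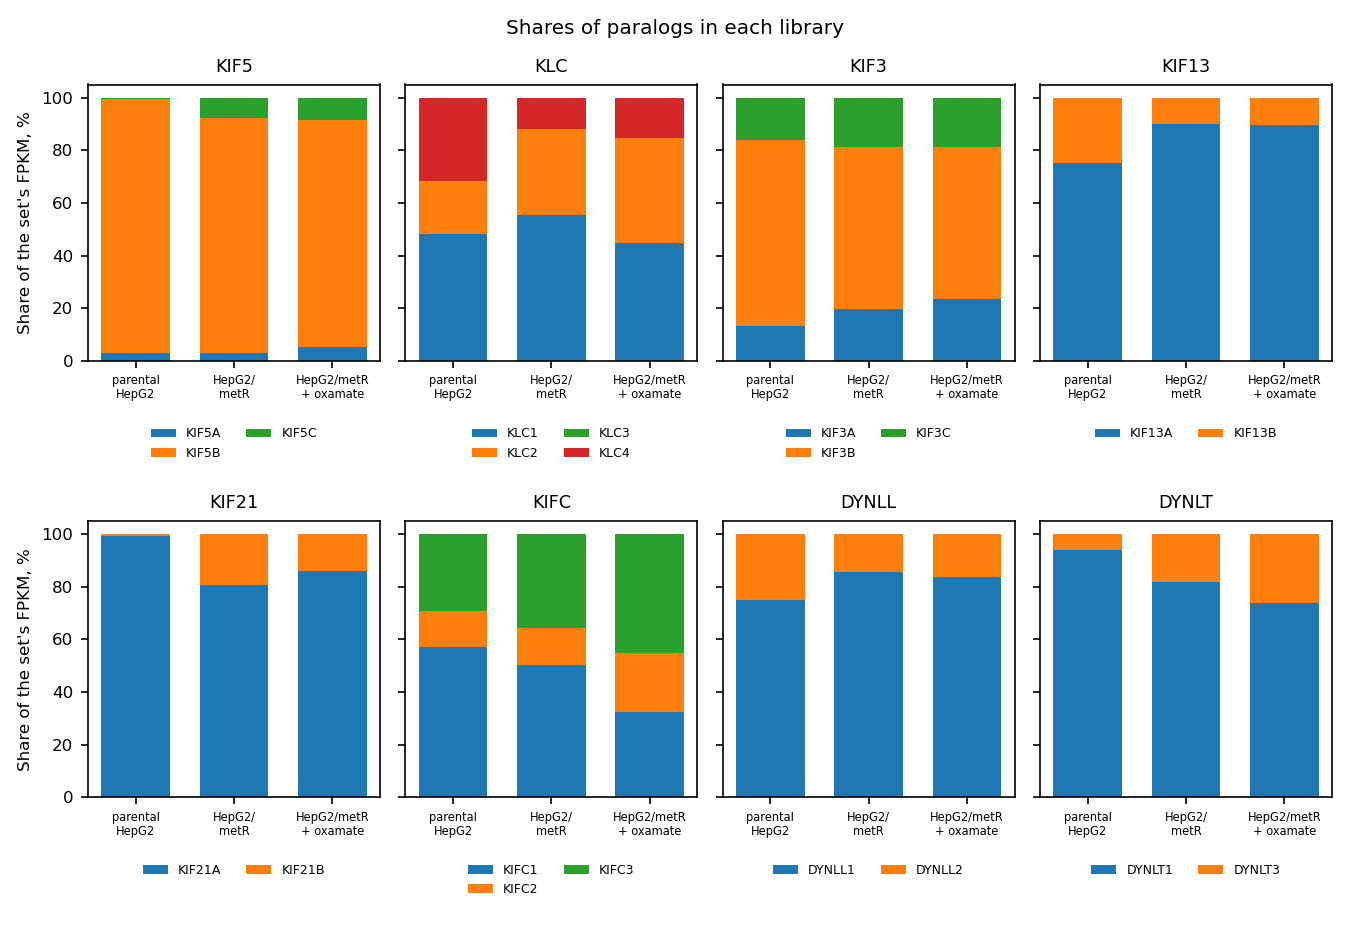
Share of each paralog, in percent of the FPKM of its set, in the 3 libraries. KIF5C rises from 0.332% to 7.85% of the KIF5 genes and DYNLT3 from 6.02% to 18.1% of the DYNLT pair between parental and HepG2/metR cells, and KIFC1 takes 57.3%, 50.2% and 32.3% of the KIFC genes.

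Of the 13 kinesins with other or mixed roles, 5 were kept. KIF2A, a depolymerizing motor of spindle poles and neurons, was at 12.04, 22.7 and 19.5 FPKM, with log2 changes of 0.86 and -0.21. KIF21A, which slows microtubule growth, was at 12.7, 5.70 and 7.98 FPKM, with a change of -1.03, just past 2-fold (-0.89 under upper-quartile scaling), while its paralog KIF21B, not kept, was at 0.0941, 1.37 and 1.28 FPKM. KIF7, a regulator of Hedgehog signaling in cilia, was at 4.33, 5.55 and 6.98 FPKM. KIF9 and KIF24 were between 0.974 and 2.38 FPKM. The 15 motor genes not kept were KIF1A, KIF2B, KIF4B, KIF6, KIF12, KIF17, KIF19, KIF21B, KIF25, KIF26A, KIF26B, KIF27, KLC3, DYNC1I1 and DYNLRB2. Of these KIF2B and KIF19 were listed at 0 in every library, and none was above 1.67 FPKM, the level of KIF12 in parental cells.

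Cytoplasmic dynein 1, which works both in transport and on the spindle, followed neither kinesin list. Its heavy chain DYNC1H1 was at 29.2, 34.3 and 36.3 FPKM, with log2 changes of 0.23 and 0.08. The intermediate chain DYNC1I2 was at 32.0, 34.1 and 28.95 FPKM and made up at least 98.2% of the pair with DYNC1I1. The light intermediate chain DYNC1LI2 was at 65.9, 45.6 and 59.0 FPKM, with changes of -0.52 and 0.37. None of the 4 chains kept passed a threshold in either comparison. The heavy chain of dynein 2, DYNC2H1, which moves cargo back along cilia, was at 0.112 FPKM in the parental library, 3.13 in that of HepG2/metR and 4.23 in that with oxamate, with a change of 1.89, whereas its light intermediate chain DYNC2LI1 was at 17.3, 13.9 and 16.2 FPKM.

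The dynein light chains included the highest motor genes per length, and several also serve other protein complexes. DYNLL1 was at 499.5 FPKM in parental cells, 446 in HepG2/metR and 363 after oxamate. DYNLRB1 was at 232, 187 and 149 FPKM. DYNLL2 was at 167, 75.7 and 70.3 FPKM, with a change of -1.13 (-0.98 under upper-quartile scaling), and its share of the DYNLL pair was 25.01%, 14.5% and 16.2%. DYNLT3 went the other way from its paralog DYNLT1. It was at 6.51, 19.7 and 22.9 FPKM, with changes of 1.46 and 0.21, while DYNLT1 was at 102, 88.7 and 65.0 FPKM. The share of DYNLT3 in the pair was 6.02%, 18.1% and 26.1%. With oxamate 4 of the 5 light chains kept were lower, against 45.6% of all genes kept, with a median of -0.29 and none past 1.5-fold. DYNLL2 was among them at -0.11 and turned to 0.07 with equal FPKM totals.

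The genes that link these motors to their cargo, from lists made together with those of the motors, did not share one direction. Of 20 genes of dynactin and dynein regulation, which dynein needs for long movement, 1 was at least 2-fold higher in HepG2/metR, against 16.6% of all genes kept, and 4 at least 2-fold lower, a share near the 17.6% of all genes, with a median of -0.16. None passed 1.5-fold with oxamate. The dynein adaptor HOOK1 was at 11.2, 1.32 and 1.49 FPKM, the dynactin subunit DCTN5 at 38.1, 8.45 and 8.34, and the dynein regulator NDE1 at 21.1, 7.51 and 6.98. Of 11 kinesin cargo adaptors kept, 1 passed 2-fold downward in HepG2/metR, against 17.6% of all genes, TRAK1, which ties mitochondria to KIF5, at 22.6, 10.6 and 13.5 FPKM. With oxamate 8 of the 11 were higher, against 52.9% of all genes kept, with a median of 0.17, and 1 passed 1.5-fold, against 4.3% of all genes, MAPK8IP3, a scaffold that binds kinesin light chains, at 12.4, 7.88 and 12.5 FPKM.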

How the data were processed

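RNA-seq values of 3 libraries, 1 per condition, were analysed. The authors deposited 1 log2 value per gene symbol and library. The unit is inferred as log2(FPKM + 1), since undoing this transform gave numbers of no more than 6 digits, as Cufflinks prints FPKM, for 100% of the genes above 1 FPKM. The submitters' processing notes name STAR 2.5.1b, Cufflinks 2.2.1, FastQC 0.11.5 and build hg19. The annotation, the filters and the use of strand are not given in the sources used here, so reads of overlapping genes, such as KIF20A and CDC23, and of close paralogs cannot be told apart with certainty. Other motors that overlap genes include KIF15 (TMEM42), KIFC2 (FOXH1 and TMEM276), KLC2 (PACS1), KLC4 (MRPL2), DYNLL1 (NRAV) and DYNC2H1 (mitochondrial pseudogenes). The values were used without further scaling, with the pseudocount of 1 they hold. The members and lists were chosen with earlier results of these data known. Named are every mitotic kinesin kept, every motor past a threshold, the highest 3 of each list, and at most the 3 largest changes of each list of other genes. CCNA2, CENPE, COL1A1, COL1A2, DCN, DYNLT1, FAP, KIF3B, KIF3C, KIF5A, KIFAP3, KIFC2 and PDGFRB were named after their values were seen. Read totals are unknown, and no counting interval could be computed. Promoters were matched by symbol to a RefSeq table (GRCh38.p14) for 49 of the 60 motor genes, all but KIFC2, KIFC3, KIF5A, KIF13B, KIF19, KIF21B, KIF26B, KIF27, KLC2, KLC4 and DYNLL2. In 10 of the 12 promoters shown, bases after the start were found in a GENCODE 29 transcript of the gene. Alternatives changed the pseudocount, the filter on low values, the scaling, the threshold and the lists, of which 4 list changes for the level ratio and the scalings for the order of the libraries were added after seeing the data. The calculation was tested on simulated data. Python 3.11, numpy 2.4.6, pandas 2.3.3 and matplotlib 3.10.9 were used.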

Additional observations from a re-analysis of the deposited data

How the results depend on the processing

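No paired analysis was possible because each condition has 1 library. A median was taken as moved when it shifted by 0.20 or more on the log2 scale. Neither the mitotic nor the transport median did so under the pseudocounts, filters, scalings and list changes tried. Nor did their difference or the median of the dynein 1 and light chains together. This limit is close to the size of the transport and dynein medians themselves, so staying under it says little about them. With oxamate the transport median went from 0.24 to 0.40 with equal FPKM totals. It was 0.38 with the light chains, KIFAP3, KIF21A and KIF21B added. The mitotic median went from -0.61 to -0.44 with equal FPKM totals. Counts moved more. At 1.5-fold in place of 2-fold, 10 mitotic and 4 transport kinesins were higher in HepG2/metR, where 3262 of all genes were higher and 3301 lower in place of 2021 and 2147. At 2-fold in place of 1.5-fold, 0 mitotic kinesins were lower and 0 transport kinesins higher with oxamate, and 66 of all genes were higher and 64 lower in place of 525 and 466. When genes had to reach a mean of 5 FPKM, 8971 genes were kept in place of 12210, and 9 transport kinesins in place of 13. Then 1 transport kinesin was at least 2-fold higher and 0 lower in HepG2/metR, since KIF5C, KIF13B and KIF16B are left out. Of the 8971 genes, 1249 were higher and 1428 lower there, in place of 2021 and 2147 of 12210. With oxamate 271 were higher in place of 525. With equal FPKM totals in all libraries, 1 mitotic kinesin was at least 1.5-fold lower and 1 higher by any amount with oxamate, and 3 transport kinesins were at least 1.5-fold higher and 0 lower by any amount, while 1191 of all genes passed 1.5-fold upward and 192 downward. Under the same scaling 5 of the dynein 1 and light chains were higher with oxamate and 4 lower, in place of 3 and 6, and their median went from -0.11 to 0.07. The medians of the other motor lists were not recomputed. A pseudocount of 0.1 or 0.01 put 2 transport kinesins past 1.5-fold with oxamate, where of all genes 1018 or 1164 were higher. With the light chains, KIFAP3, KIF21A and KIF21B added, the transport list held 18 genes kept in place of 13. Of these 18, 4 passed 2-fold downward in HepG2/metR and 2 were lower by any amount with oxamate. The ratio of mitotic to transport levels was then 0.871, 1.57 and 0.882 in parental, HepG2/metR and oxamate-treated cells. Without KIF5B it was 1.69, 2.71 and 1.44, and without KIF22 it was 0.901 in parental cells. These changes of the ratio were chosen after seeing the data. In each of them the ratio was higher in HepG2/metR than in the other libraries. Leaving out a replicate was not possible with 1 library per condition. The number of reads behind each value is unknown, so that counting error cannot be set against these differences.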
